A study of Mus musculus with 6 samples.

Results

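This account covers 10 genes of bone morphogenetic protein (BMP) signalling in 661W cells: the 4 Id genes Id1, Id2, Id3 and Id4, the ligands Bmp2 and Bmp4, the inhibitory Smads Smad6 and Smad7, and the secreted antagonists Grem1 and Nog. They were chosen by name as a pathway, with earlier results of these data known, out of 38776 usable genes in the count table. All 10 passed the filter on low counts that left 16168 genes tested. 661W is an immortalised mouse retinal line that carries the SV40 T antigen, and it is used as a cone photoreceptor model. Serum-starved cells were grown for 48 h in DMEM high glucose with 10% fetal calf serum and then for 72 h in fresh medium without serum. Serum-fed cells had the same 48 h and then 72 h in fresh medium with 10% serum. Each condition was sampled once at passages 24, 26 and 27, which the submitters describe as independent experiments, giving 3 starved and 3 fed libraries of polyA-selected mRNA from a single cell line. With the passage in the model, the p-values for starved against fed set the difference within passages against its spread between these experiments. Much of that spread is estimated from the other genes tested.

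BMP ligands bind pairs of serine/threonine kinase receptors, which phosphorylate Smad1, Smad5 and Smad9. These enter the nucleus with Smad4 and bind DNA, and the Id genes, Smad6 and Smad7 are among the best known genes they switch on. Id proteins have a helix-loop-helix but no DNA-binding region, so they hold E proteins in pairs that cannot bind DNA and thereby restrain tissue-specific bHLH factors. Smad6 and Smad7 act inside the cell against the receptors, while gremlin-1 and noggin capture BMP ligands outside it.

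The libraries held 71970076 to 87178722 counts, and levels are given as CPM, counts scaled to these totals. Counting error was therefore small beside the differences between passages for all members but Id4 and Bmp2, which had 269 and 410 counts over the 6 libraries. The passage 24 pair stood at the low end of the first principal component within each condition (57.79% of the variance), at −37.35 in starved cells and −85.39 in fed cells. The other libraries scored 58.55 and 65.8 in starved cells and −28.07 and 26.46 in fed cells. Of 9 photoreceptor markers 8 were under 1 CPM in every library, and Arr3, Nrl and Rcvrn had no count, so these markers of the line's reputed origin were near or at 0.

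No member was called between the conditions. At an adjusted p under 0.05 from edgeR's quasi-likelihood test, with the passage as a block, 0 of the 10 members passed, where 5.07% of all genes tested did. At an unadjusted p under 0.05 it was 1 member, Smad7, against 24.3% of all genes. DESeq2 and limma-voom with the passage in the model also called 0 of 10, with 2 and 1 at an unadjusted p under 0.05. The median log2 fold change (starved over fed) was 0.01 over the 10 members and −0.00107 over all genes tested, and 5 of the 10 had a positive value. A level that goes down in a culture as a whole can mean fewer cells with the transcript or less of it in each cell, which these libraries cannot tell apart.

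The members disagreed between passages. The starved-to-fed ratio had the same sign at all 3 passages in 0 of 10 members, against 46.9% of all genes tested. In 6 of them, Id1, Id2, Id3, Bmp2, Bmp4 and Smad6, starved cells were lower than fed cells at passage 24 and higher at passages 26 and 27, a pattern found in 11.8% of all genes. The ranges of starved and fed levels did not overlap in 0 of 10 members, near the 12.8% of all genes. Scaling by TMM in place of library totals turned the sign of 0 of the 30 ratios. These sign patterns were counted after the values had been seen, and the members were chosen with earlier results of these data known. The shares are therefore descriptions and do not test whether the pattern is particular to these genes.

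**Figure D1:**
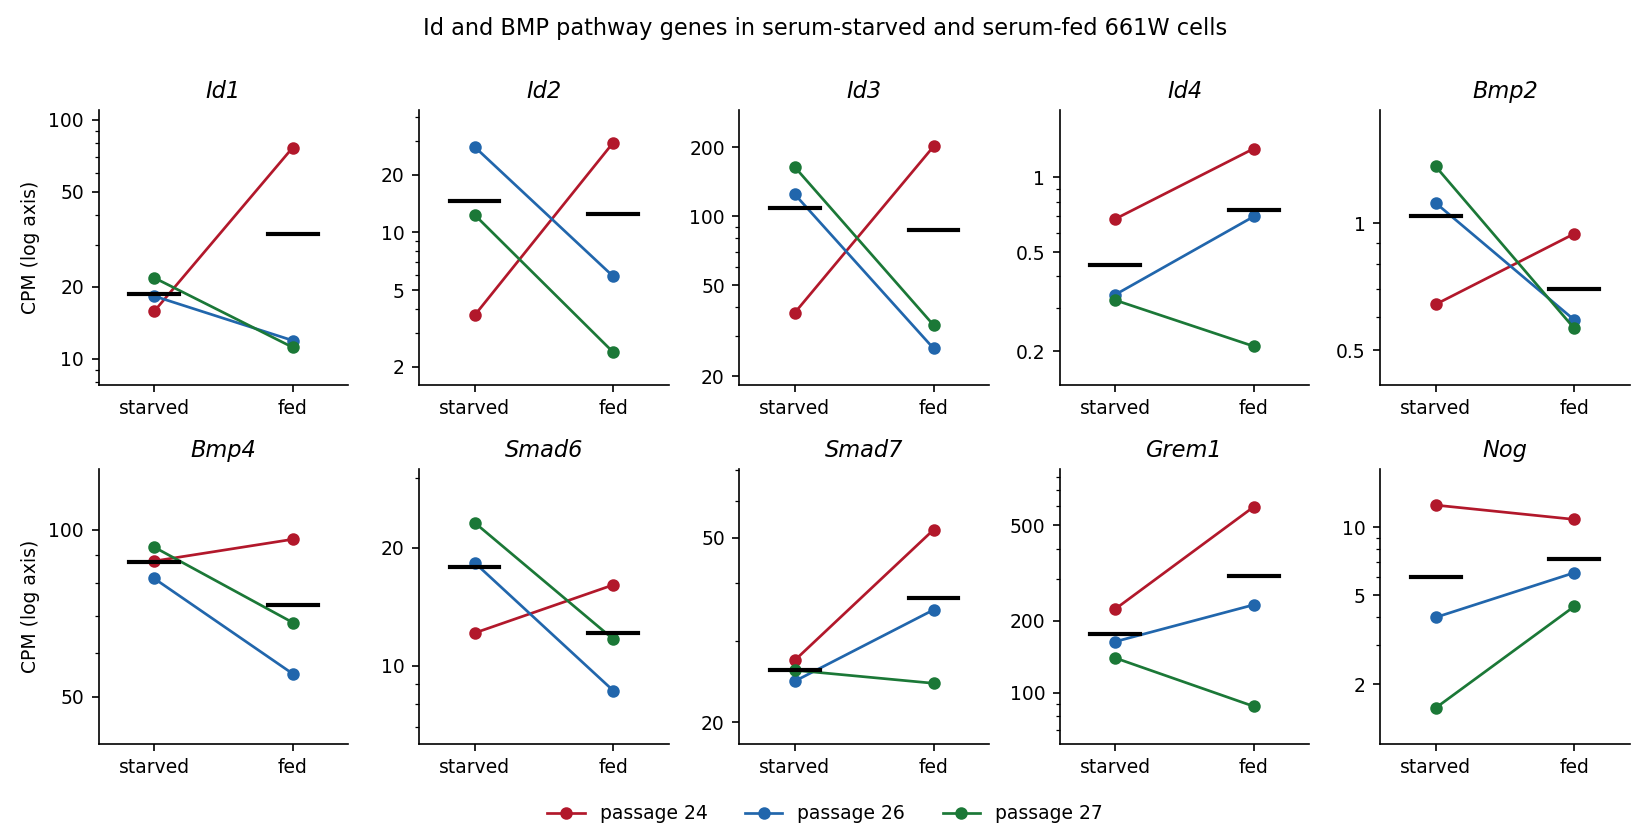
Level of each of the 10 genes (CPM, log axis) in serum-starved and serum-fed 661W cells, 1 panel a gene; points are libraries, lines join the 2 libraries of a passage, and black bars are condition means (n = 3 each). The passage 24 line climbs towards fed cells for Id1, Id2 and Id3, where the lines of passages 26 and 27 descend; for Id2 it joins 3.70 CPM in starved cells to 29.3 CPM in fed cells.

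Upstream sequence was available from RefSeq for 6 of the 10 members (GRCm38.p6, 250 bases before the start). It is shown for Id2, Id3, Bmp4 and Smad6, which share the passage pattern, and for Atoh8, a bHLH gene whose ratios came nearest to those of Id3. Capitals mark GGCGCC and GGAGCC, the core of BMP-type Smad elements, and CAGAC, a Smad box, on either strand. The whole Id3 window and 161 bases of the Id2 window lie in exons of longer transcripts. Given are therefore the exon-free bases of Id2 and, though exonic, 30-base stretches around the Id3 motifs. They run 5′ to 3′ on the gene's strand.
Id2, chr12:25096254-25096342, minus strand: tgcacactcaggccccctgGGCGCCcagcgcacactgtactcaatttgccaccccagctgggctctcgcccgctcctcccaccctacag
Id3, chr4:136143633-136143662, plus strand: gaGGCTCCgctgtcctcggcgtCAGACcag
Id3, chr4:136143742-136143771, plus strand: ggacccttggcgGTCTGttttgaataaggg
Smad6, chr9:64022060-64022309, minus strand: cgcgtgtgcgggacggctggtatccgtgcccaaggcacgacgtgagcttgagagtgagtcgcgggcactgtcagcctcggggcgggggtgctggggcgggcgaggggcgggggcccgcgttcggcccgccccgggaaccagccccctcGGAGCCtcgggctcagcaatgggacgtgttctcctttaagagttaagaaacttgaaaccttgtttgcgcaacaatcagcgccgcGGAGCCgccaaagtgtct
Bmp4, chr14:46390670-46390919, minus strand: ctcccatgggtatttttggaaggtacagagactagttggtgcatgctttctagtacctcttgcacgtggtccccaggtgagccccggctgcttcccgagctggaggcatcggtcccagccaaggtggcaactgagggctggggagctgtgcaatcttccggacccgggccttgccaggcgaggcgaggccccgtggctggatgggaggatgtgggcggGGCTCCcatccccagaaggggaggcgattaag
Atoh8, chr6:72235578-72235827, minus strand: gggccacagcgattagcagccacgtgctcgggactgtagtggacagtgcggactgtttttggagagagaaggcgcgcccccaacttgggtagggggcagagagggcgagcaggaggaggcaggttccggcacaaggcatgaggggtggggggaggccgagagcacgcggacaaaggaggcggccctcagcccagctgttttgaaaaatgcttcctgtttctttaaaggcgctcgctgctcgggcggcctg

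Over the whole 250 bases, GGAGCC was found in Id2, Id3, Id4, Bmp4 and Smad6, with 2 copies in Smad6, and in 26.0% of 32851 mouse promoters of the same length. The Id2 copy, 88 bases before the start, and all Id3 matches lie within annotated exons. GGCGCC was found in Id2, Id4 and Grem1 (9.59% of all promoters) and CAGAC in Id3, with 2 copies, and Grem1 (42.2%). The E-box CANNTG, to which E protein pairs bind, was found in Id2 and, 3 times, in Bmp4 (66.2% of all promoters). These windows were rich in G and C, from 62.8% in Id2 and Id3 to 75.6% in Id4, against a median of 52.4% over all promoters. Atoh8 held 2 E-boxes and none of the other motifs. Set beside the passage pattern, GGAGCC was present in Id2, Id3, Bmp4 and Smad6, which have the pattern, and in Id4, which does not. It was absent from Grem1, which lacks the pattern, and from Atoh8, which has it, and no window was available for Id1 and Bmp2. The matches describe these letters in these windows and show no binding.

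Within passages, Id1, Id2 and Id3 had the ratios furthest apart of the 10 members. Id3 (ENSMUSG00000007872, chromosome 4) is an E protein antagonist found in many proliferating and progenitor cells. It stood at 37.9, 124 and 164 CPM in starved cells at passages 24, 26 and 27, against 202, 26.4 and 33.4 CPM in fed cells. Starved cells were thus low at passage 24 and high at the other passages, fed cells did the reverse, and the conditions overlapped. Within passages the log2 ratio was −2.41, 2.23 and 2.29, each with a 95% counting interval that excluded 0. The mean was 109 ± 64.3 CPM in starved cells and 87.1 ± 99.2 CPM in fed cells (SD, n = 3 each), and the fitted log2 fold change was 0.93 ± 0.96 (SE; edgeR adjusted p = 0.601).

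Id2 (ENSMUSG00000020644, chromosome 12), which in other systems holds back myogenic and neuronal bHLH factors, had the same shape at a lower level. It measured 3.70, 27.9 and 12.4 CPM in starved cells at passages 24, 26 and 27, against 29.3, 5.91 and 2.38 CPM in fed cells. The passage 24 starved library was the lowest of its condition and its fed partner the highest of all 6, and the highest library was 12.3-fold above the lowest. The log2 ratios were −2.98, 2.24 and 2.38, and the fitted log2 fold change was 0.85 ± 1.11 (SE; edgeR adjusted p = 0.685).

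Id1 (ENSMUSG00000042745, chromosome 2), a widely used readout of BMP receptor activity, was steadier in starved than in fed cells. Starved cells had 15.8, 18.3 and 21.8 CPM at passages 24, 26 and 27, against 76.5, 11.9 and 11.1 CPM in fed cells. The starved libraries lay close together, and the passage 24 fed library stood far above the other 5. The log2 ratios were −2.28, 0.62 and 0.97, and the fitted log2 fold change was −0.22 ± 0.60 (SE; edgeR adjusted p = 0.859).

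Id4 (ENSMUSG00000021379, chromosome 13), known from neural progenitors and spermatogonial stem cells, was barely expressed. It measured 0.681, 0.338 and 0.321 CPM in starved cells, against 1.31, 0.697 and 0.210 CPM in fed cells, at passages 24, 26 and 27. Passage 24 was the highest in both conditions, and Id4 did not share the pattern of the other Id genes: its log2 ratio was −0.94, −1.04 and 0.62. The last of these was the only one of the 30 ratios whose counting interval included 0. The fitted log2 fold change was −0.58 ± 0.42 (SE; edgeR adjusted p = 0.441).

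**Figure D2:**
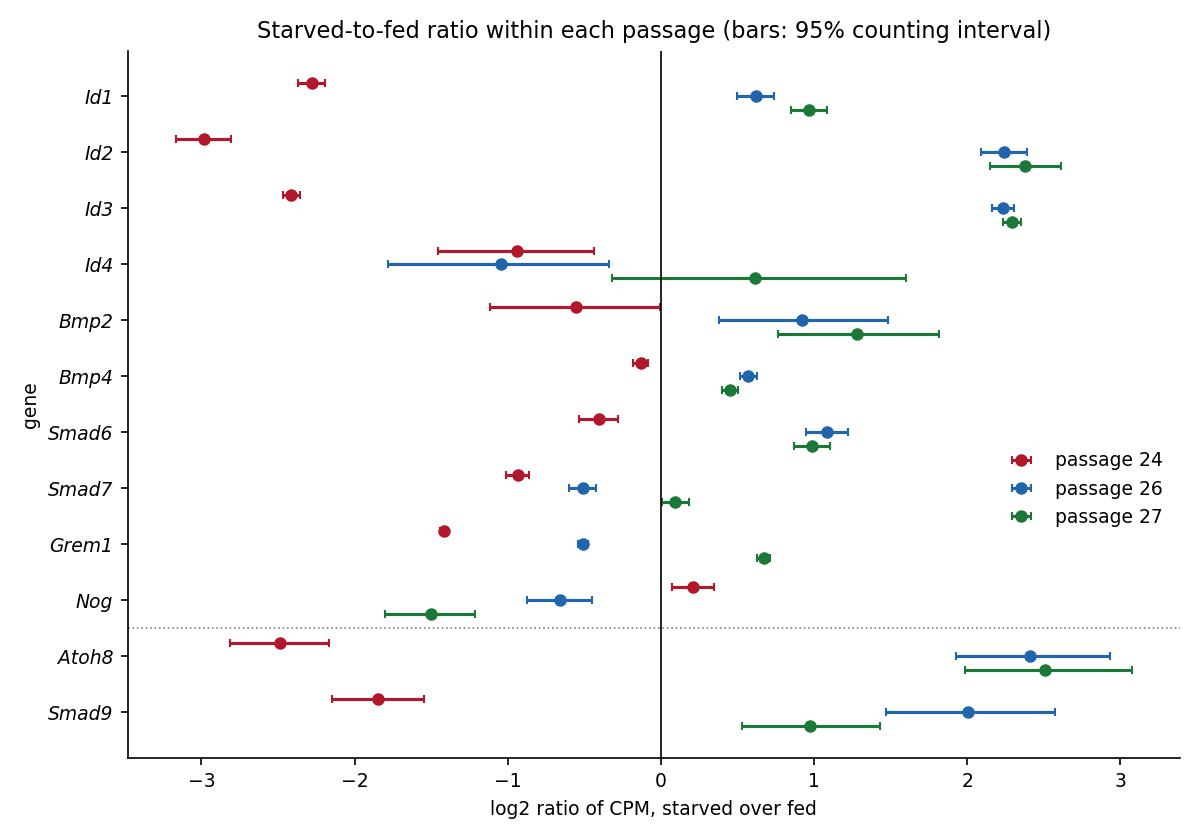
Log2 ratio of CPM (starved over fed) within each passage for the 10 genes and, below the dotted line, Atoh8 and Smad9; bars are exact 95% counting intervals of 1 library pair and do not cover biological spread. Id2, Id3 and Atoh8 lie below −2 at passage 24 and above 2 at passages 26 and 27.

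The ligands moved less. Bmp4 (ENSMUSG00000021835, chromosome 14), a patterning ligand of the dorsal eye, was the more abundant ligand, at 87.8, 81.7 and 93.0 CPM in starved cells and 96.1, 55.0 and 68.0 CPM in fed cells. The starved values were close together, and the passage 24 fed library lay above all of them while the other fed libraries lay below. Its log2 ratios were −0.13, 0.57 and 0.45, with a fitted log2 fold change of 0.24 ± 0.16 (SE; edgeR adjusted p = 0.396). Bmp2 (ENSMUSG00000027358, chromosome 2), a close relative of Bmp4 with strong bone-forming activity, was near 1 CPM, at 0.642, 1.12 and 1.37 CPM in starved cells and 0.945, 0.590 and 0.563 CPM in fed cells. It followed the same order of signs, with log2 ratios of −0.56, 0.92 and 1.28 and a fitted log2 fold change of 0.50 ± 0.42 (SE; edgeR adjusted p = 0.505).

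The inhibitory Smads did not share a pattern. Smad6 (ENSMUSG00000036867, chromosome 9), which acts mainly on BMP receptor signalling, had 12.1, 18.3 and 23.2 CPM in starved cells at passages 24, 26 and 27, against 16.1, 8.65 and 11.7 CPM in fed cells. Starved cells were the lower ones at passage 24 alone, with log2 ratios of −0.41, 1.08 and 0.99, and the fitted log2 fold change was 0.51 ± 0.30 (SE; edgeR adjusted p = 0.353). Smad7 (ENSMUSG00000025880, chromosome 18), which blocks both BMP and TGF-beta receptors, had 27.2, 24.5 and 25.9 CPM in starved cells, against 52.1, 35.0 and 24.3 CPM in fed cells. Starved cells held one level at every passage, and the fed libraries spread out, with the passage 27 one just below the starved range. Its log2 ratios were −0.94, −0.51 and 0.09, and it had the smallest p of the 10 members, with a fitted log2 fold change of −0.51 ± 0.21 (SE; edgeR adjusted p = 0.185).

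For both antagonists the fitted log2 changes from passage 24 were larger than that between conditions, a comparison that was not tested. Grem1 (ENSMUSG00000074934, chromosome 2), which encodes gremlin-1, was the most abundant member in CPM, at 224, 164 and 140 in starved cells and 599, 233 and 87.8 in fed cells at passages 24, 26 and 27. Passage 24 was highest and passage 27 lowest in both conditions, with log2 ratios of −1.42, −0.51 and 0.67 and a fitted log2 fold change of −0.48 ± 0.35 (SE; edgeR adjusted p = 0.443). Nog (ENSMUSG00000048616, chromosome 11), which encodes noggin, had 12.6, 3.98 and 1.57 CPM in starved cells against 10.9, 6.29 and 4.45 CPM in fed cells. It too was highest at passage 24 and lowest at passage 27 in both conditions. Its ratios had the opposite signs to those of Id1, Id2 and Id3, at 0.21, −0.66 and −1.50 on the log2 scale, and the fitted log2 fold change was −0.69 ± 0.33 (SE; edgeR adjusted p = 0.246).

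Nog was the only one of the 10 members called between passages in the same edgeR fit, a test added after the values had been seen, where 14% of all genes tested were called. Relative to passage 24 its log2 change, averaged over the conditions, was −1.37 at passage 26 and −2.23 at passage 27 (edgeR adjusted p = 0.0278). For Grem1 the same changes were −1.07 and −1.80, which did not pass (edgeR adjusted p = 0.0578), and for Id4 −1.02 and −1.88 (edgeR adjusted p = 0.0844). For Id3 the same test gave an adjusted p of 0.612, each passage holding 1 high and 1 low library.

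Per kilobase of exon, which allows genes to be set beside each other, Id3 and Grem1 stood highest. Mean RPKM, from the summed exons of GENCODE M21, was 60.7 in starved and 48.6 in fed cells for Id3, 42.4 and 73.9 for Grem1, and 38.9 and 32.5 for Bmp4. Id1 came next at 16.0 in starved and 28.6 in fed cells. Id2, Smad7, Smad6 and Nog lay between 3.56 and 6.01 in starved cells and between 3.79 and 8.20 in fed cells. Over single libraries Id3 ranged between 14.8 and 113 and Grem1 between 21.2 and 144, so the first places in this order were not separated beyond the spread. Bmp2 and Id4 were below the rest in every library, at up to 0.384 RPKM for Bmp2 and up to 0.339 RPKM for Id4, and their ranges overlapped.

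The passage 24 pair decided the calls. Without it, in an edgeR fit of passages 26 and 27, 3 of the 10 members rose in starved cells, against 5.48% of genes tested called higher and 8.6% called in either direction. Id3 rose by 2.22 ± 0.14 on the log2 scale (SE; edgeR adjusted p = 0.00402), Id2 by 2.26 ± 0.21 (adjusted p = 0.00633) and Smad6 by 0.99 ± 0.19 (adjusted p = 0.0314). Id1 missed the threshold at 0.75 ± 0.20 (adjusted p = 0.0721), as did Bmp4 at 0.47 ± 0.13 (adjusted p = 0.0812) and Nog at −1.12 ± 0.32 (adjusted p = 0.0847). This fit has 2 libraries a condition and takes most of its estimate of spread from the other genes. Without passage 26 or without passage 27, edgeR called 0 of the 10 members, with 0 and 3 at an unadjusted p under 0.05.

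**Figure D3:**
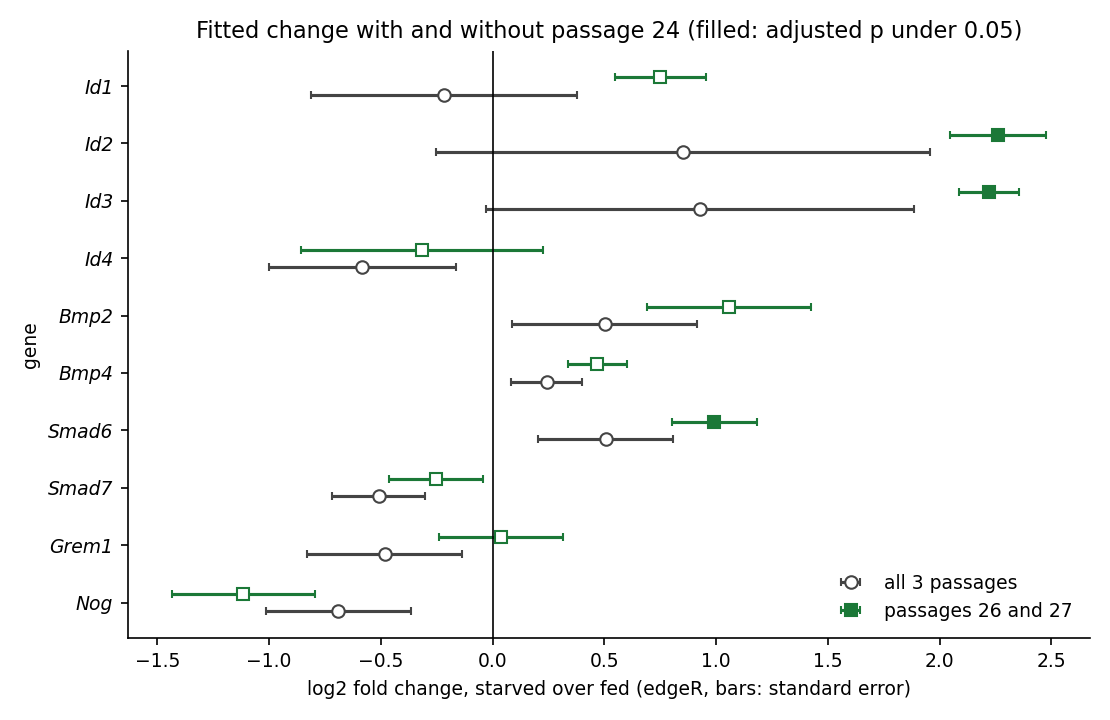
Fitted log2 fold change (starved over fed, edgeR, bars are standard errors) of the 10 genes from passages 26 and 27 (squares) and from all 3 passages (circles); filled symbols have an adjusted p under 0.05. Id2, Id3 and Smad6 are filled at 2.26, 2.22 and 0.99 without passage 24, and no circle is filled.

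The passage 24 pair did not run opposite to the others as a whole. Of the 1356 genes called from passages 26 and 27 alone, 1136 (83.8%) had a ratio of the same direction at passage 24, and Id2, Id3 and Smad6 belonged to the 220 that had the opposite one. Across genes the log2 ratios at passage 24 correlated at 0.508 with those at passage 26 and at 0.287 with those at passage 27. Those of passages 26 and 27 correlated at 0.535 with each other. Genes share libraries and are not independent replicates, so these values are descriptions.

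A reversal as wide as that of Id2 and Id3 was uncommon. Starved cells were at least 2-fold lower at passage 24 and at least 2-fold higher at both other passages in 2 of the 10 members, Id2 and Id3, and in 42 of all genes tested (0.26%). Of these, 13 averaged at least 1 CPM, and Id3 was the most abundant of them. The rule of 2-fold was set after the values of Id2 and Id3 had been seen.

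**Figure D4:**
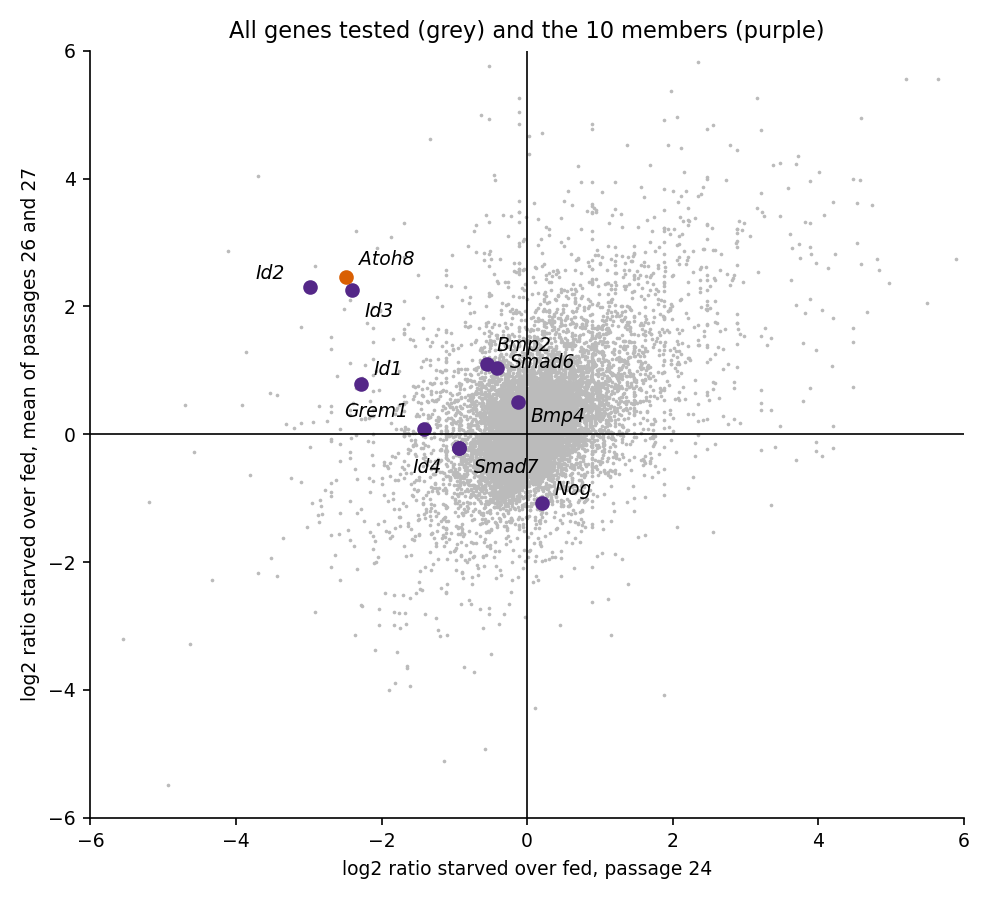
Log2 ratio starved over fed at passage 24 against the mean of the ratios at passages 26 and 27 for all genes tested (grey; 16161 drawn, 7 lie outside the axes), with the 10 genes in purple and Atoh8 in orange. Id2, Id3 and Atoh8 sit together at the upper left, away from the main cloud, and Id4 and Smad7 coincide just below the horizontal axis.

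By distance between the 3 within-passage log2 ratios, over 12568 genes with a mean of at least 1 CPM, the gene nearest to Id3 was Atoh8 (distance 0.29) and the next was Id2 (0.58). Atoh8, a bHLH gene listed among the BMP targets, measured 1.23, 2.92 and 2.54 CPM in starved cells at passages 24, 26 and 27, against 6.91, 0.550 and 0.445 CPM in fed cells. Its log2 ratios were −2.49, 2.41 and 2.51, and it rose in starved cells without passage 24 (2.41 ± 0.35 on the log2 scale, SE; edgeR adjusted p = 0.0163). The search had picked Atoh8 by these same ratios, so that p-value is no separate evidence of a rise. Atoh8 was also the nearest gene to Id2 (0.55), ahead of Id3. The 5 genes nearest to Id1 held no Id gene and no listed BMP target: they were Npnt (0.16), Lrrtm2 (0.58), Cxcl5 (0.63), Dmpk (0.63) and Myod1 (0.83). The integrin Itgb6 (0.59), the protocadherin Pcdh20 (1.11) and Xirp1 (1.19) followed for Id3. These searches were added after the values had been seen. For Smad7, the member of smallest p, the nearest genes were Col27a1 (0.17), Trim69 (0.18), Slc29a2 (0.19), Apol10b (0.20) and Fam129c (0.23).

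Smad9, a signal-carrying Smad that is itself a BMP target, had a related shape at a low level. It measured 1.57, 1.94 and 1.59 CPM in starved cells against 5.63, 0.483 and 0.812 CPM in fed cells, with log2 ratios of −1.84 at passage 24 and 0.97 at passage 27 and, at 4.01-fold, its highest ratio at passage 26. As in Id1, the starved libraries were alike and the passage 24 fed library stood above the others. Lower starved levels at passage 24 with higher ones at passages 26 and 27 were found in 2 of the 6 signal-carrying Smads, Smad9 and Smad4. For Smad4 the log2 ratios were only −0.10, 0.24 and 0.09. The order was found in 2 of the 10 other BMP targets (Atoh8 and Hey1), against the 11.8% of all genes. In the other lists, members included, it was 4 of 10 receptors and co-receptors, 3 of 8 ligands, 3 of 15 secreted antagonists and modulators and 2 of 10 intracellular inhibitors. It was 1 of 7 tissue-specific bHLH factors, 1 of 12 TGF-beta and activin ligands and receptors, 0 of 10 TGF-beta targets and 0 of 3 E proteins. Smad9 was looked at because of its pattern, and it missed the threshold without passage 24 (1.43 ± 0.41 on the log2 scale, SE; edgeR adjusted p = 0.0830).

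Around the members, 82 further genes of the pathway and of its neighbours were tested in 10 lists, and 10 of them (12.2%) rose in starved cells and 0 fell, against 3.48% and 1.6% of all genes. Their median log2 fold change was 0.20. The lists were chosen with earlier results of these data known, so these shares are descriptions and no test of the pathway. Among 8 BMP ligands, Bmp2 and Bmp4 included, 1 rose. It was Bmp3, a ligand known to oppose bone formation, at 2.13, 29.9 and 34.3 CPM in starved cells against 0.0973, 0.107 and 2.19 CPM in fed cells (log2 fold change 5.23 ± 0.73, SE; edgeR adjusted p = 0.0123). Its passage 24 starved value lay within the fed range. Among receptors and co-receptors 1 of 10 rose, the hemojuvelin gene Hfe2 (2.59 ± 0.38, SE; edgeR adjusted p = 0.0145), which averaged 1.42 CPM in starved cells and 0.200 CPM in fed cells. At passage 24 Hfe2 had only 9 counts in starved cells and 2 in fed cells, and that starved level also lay within the fed range.

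None of the 6 signal-carrying Smads, the 10 intracellular inhibitors, the 10 other BMP targets or the 3 E proteins passed. The smallest p in each was that of Smad5 (log2 fold change 0.29, edgeR adjusted p = 0.231), of the ubiquitin ligase gene Smurf1 (−0.33, adjusted p = 0.131), of the homeobox gene Dlx5 (1.68, adjusted p = 0.111) and of Tcf4 (0.80, adjusted p = 0.0631). The intracellular inhibitors include Smad6 and Smad7. Without passage 24, 2 of the other BMP targets rose, Atoh8 and Dlx5, and 1 fell, the homeobox gene Dlx3 (log2 fold change −3.02, edgeR adjusted p = 0.0114). Tcf4 of the E proteins rose as well (1.02, adjusted p = 0.0392), as did the ligand gene Gdf5 (1.38, adjusted p = 0.0357) and the protease gene Tll1 (2.02, adjusted p = 0.00678).

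Of 15 secreted antagonists and modulators, Grem1 and Nog among them, 2 rose. Chrdl1, a chordin-like BMP antagonist, averaged 114 ± 77.1 CPM in starved cells and 39.5 ± 32.6 CPM in fed cells (SD, n = 3 each; log2 fold change 1.55, edgeR adjusted p = 0.00438). Fstl1, a follistatin-like protein, averaged 1452 ± 426 CPM in starved cells and 825 ± 349 CPM in fed cells (log2 fold change 0.80, edgeR adjusted p = 0.0360). Both were higher in starved cells at all 3 passages, unlike Grem1 and Nog. Their passage 24 starved levels, 28.1 CPM for Chrdl1 and 979 CPM for Fstl1, lay within the fed ranges of 9.16 to 74.0 and 546 to 1217 CPM. Without passage 24 Fstl1 lost its call (edgeR adjusted p = 0.0627).

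Of 7 tissue-specific bHLH factors, the kind of protein whose partners the Id proteins hold, 3 rose. They were the musculin gene Msc (log2 fold change 2.72, edgeR adjusted p = 0.00310), the myogenin gene Myog (2.07, adjusted p = 0.00310) and the tendon factor Scx (0.80, adjusted p = 0.0320). Msc stood at 9.29, 11.8 and 13.4 CPM in starved cells against 1.56, 1.73 and 1.69 CPM in fed cells. Myog had 8.08 CPM in starved cells at passage 24, within its fed range of 2.36 to 31.5 CPM. Unlike Id1, Id2 and Id3, these 3 genes were higher in starved cells at passage 24 too. The myogenic factor Myod1, which did not pass, was the one of the 7 with the order of signs of Id1, Id2 and Id3, at log2 ratios of −2.16, 0.87 and 0.19.

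In the related TGF-beta branch, 1 of 12 ligands and receptors rose, Tgfb3 (0.98 on the log2 scale, edgeR adjusted p = 0.0313, and 0.0553 without passage 24), and 2 of 10 TGF-beta targets, Tgfbi (2.66, adjusted p = 0.00438) and the collagen gene Col1a1 (1.43, adjusted p = 0.0160). The median of the TGF-beta targets was −0.32, opposite in sign to the genes that passed. The 6 fibroblast markers, with Lum at no count in 4 of the 6 libraries, summed to 1977 to 6495 CPM in starved cells and 771 to 2496 CPM in fed cells, of which Col1a2 alone made 1714 to 5433 CPM in starved cells and 685 to 2281 CPM in fed cells. The 6 myoblast markers, with Myf5 at no count, summed to 47.5 to 328 CPM in starved cells and 68.3 to 164 CPM in fed cells. Of 6 retinal ganglion cell markers 4 were under 1 CPM in every library, and the sum of 28.8 to 54.7 CPM in starved cells and 8.21 to 25.8 CPM in fed cells was mostly Thy1, at 25.9 to 52.5 CPM in starved cells and 6.52 to 23.0 CPM in fed cells. The 5 Müller glia markers, with Aqp4 at no count and 2 of the 5 under 1 CPM in every library, summed to 104 to 302 CPM in starved cells and 70.0 to 88.8 CPM in fed cells. Slc1a3 stood at 22.0, 189 and 193 CPM in starved cells at passages 24, 26 and 27, against 6.56, 15.1 and 22.0 CPM in fed cells. Apoe was also higher in starved cells at every passage, Glul was mixed, and Rlbp1, under 1 CPM, was lower at every passage. The part of these cell type markers in the levels of the Id and BMP genes was not tested.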

How the data were processed

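Total RNA from 661W cells was made into stranded polyA-selected libraries and read as 75 bp single ends on an Illumina NextSeq instrument, with 4 lanes merged. Alignment by the authors was done in STAR against the GRCm38/mm10 build. Their gene counts come from HTSeq (union mode, reverse strand, UCSC mm10 gene model), and the deposited values are raw counts per gene. For both tools the version is not given in the sources used here. A second deposited table holds the authors' own comparison (fold changes, test statistics and p-values) and was not used.

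Of 38803 genes, 27 had a date for a name (0.223% to 0.301% of a library's counts) and were left out. CPM are counts over the total of the remaining 38776 genes. Within-passage ratios carry exact conditional binomial 95% intervals, which cover counting error only. The test was edgeR 4.0.16 (R 4.3.3): TMM, filterByExpr and the quasi-likelihood F-test with the passage as a block, and Benjamini-Hochberg adjustment over 16168 genes. The SE is the log2 fold change over the root of F. The pairing comes from the passage in the labels. With condition means removed, libraries of the same passage correlated at 0.662, 0.246 and 0.575 for passages 24, 26 and 27, against at most −0.139, 0.243 and 0.243 with another passage. The statistics were tested on simulated data with less spread between libraries than here and with each change equal at all passages. That test does not cover changes as uneven as those of Id1, Id2 and Id3. DESeq2 1.42.0 and limma 3.58.1 were alternatives. Positions of members, exon lengths and exon overlaps are from GENCODE M21 (GRCm38) and upstream sequences from RefSeq (GRCm38.p6).

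All 10 members are named. In each pathway list the genes called are named, up to 4 of smallest p, or the one of smallest p where none was. For the member of smallest p, the 5 genes of nearest ratios (Euclidean distance over the 3 passages) are named. The members and lists were chosen with earlier results of these data known. The level of 0.05 is used here; the study states 0.01.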

Additional observations from a re-analysis of the deposited data

How the results depend on the processing

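Each member's log2 fold change was recomputed under 8 other settings and with each passage left out, 110 values in all. Under the 8 other settings, which were edgeR and DESeq2 without the passage, DESeq2 and limma-voom with it, RLE factors, library totals, no filter and 10 counts in every library, all 80 values kept their direction and stayed above an adjusted p of 0.05. Leaving out a passage removes both its libraries, since in the paired fit a lone library carries no information. The count of members called then ranged between 0 and 3, and the 3 (Id2, Id3 and Smad6) came without passage 24. Over the 3 omissions the log2 fold change ranged between −0.90 and 0.75 for Id1, −0.42 and 2.26 for Id2, −0.15 and 2.22 for Id3, and −1.02 and 0.037 for Grem1. Id1 and Grem1 changed sign without passage 24, and Id2 and Id3 without either other passage. The pairing by passage changed no member's call: without the replicate block edgeR and DESeq2 each called 0 of 10. Over all genes, where the paired edgeR fit called 820, edgeR without the replicate block called 4, DESeq2 2028 with the passage and 337 without it, edgeR with no filter 1811, and the level of 0.01 left 137. Leaving out a passage gave 334 to 1356 calls over all genes: 1356 without passage 24, 432 without passage 26 and 334 without passage 27. The cause was not tested.

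With 3 experiments, effects as uneven as those of Id1, Id2 and Id3 leave a serum response and a difference between experiments that cannot be told apart. A single library pair stands behind each within-passage ratio, and for Id4 the counts were low (16 to 94 a library).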
